A study of Mus musculus with 2 samples.

Results

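Venous endothelial cells of the mouse choroid were described here from single-cell RNA counts of the choroid and the retinal pigment epithelium (RPE). They were chosen by a rule on counts of unique molecular identifiers (UMIs, each standing for 1 captured transcript). A cell was endothelial with at least 5 UMIs of Pecam1, Cdh5, Egfl7, Esam and Cldn5 together and at most 2 of Ptprc, Dcn and Sox10. Its bed was the strictly largest of 3 sums, with at least 3 UMIs: Selp, Ackr1, Lrg1 and Nr2f2 for venous cells, Kcne3, Esm1, Car4 and Cd300lg for capillary cells, and Gja5, Gja4, Bmx, Gkn3 and Stmn2 for arterial cells. The rule found 380 venous cells, 171 in replicate 1 and 209 in replicate 2, among 1114 endothelial cells and 21898 cells in all. It found 343 capillary cells (146 and 197 in replicates 1 and 2) and 134 arterial cells (69 and 65), and 257 endothelial cells reached no bed. All cells came from wild-type ICR mice aged 8 weeks with no treatment. The study holds 2 libraries, each a pool of the choroid and RPE of 1 male and 1 female, dissociated with collagenase A and trypsin. Sex and animal therefore cannot be separated within a library. The fit took out the mean difference between the 2 pools, so p-values rest on how far differences between groups of cells varied between them. That spread was estimated from all groups fitted, among them 6 classes that are not endothelial.

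Venules and veins collect blood from the capillary sheet under the retina, the choriocapillaris, and carry it to the vortex veins. In most tissues postcapillary venules are the segment where leukocytes leave the blood: selectins slow the cells, integrin ligands such as ICAM-1 and VCAM-1 hold them, and endothelial granules store P-selectin beside von Willebrand factor. The nuclear receptor encoded by Nr2f2 keeps venous identity and restrains Notch signalling, which marks arteries, while Ackr1 encodes a chemokine-binding receptor of venules and Lrg1 a secreted glycoprotein that modulates TGF-β signalling.

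The 4 venous genes contributed unequally to the choice, and their levels in the chosen cells are a description only. P-selectin (Selp) had a UMI in 125 of 171 and 147 of 209 venous cells (73.1% and 70.3%), and it gave 66.4% and 76.0% of all venous-rule UMIs. Lrg1 had a UMI in 94.7% and 89.5% of venous cells and gave 29.9% and 19.3% of those UMIs. It also had a UMI in 39.0% and 35.5% of capillary and 18.8% and 30.8% of arterial cells. More cells depended on Lrg1 than on Selp: without Lrg1 in the rule 111 and 130 cells were venous, and without Selp 142 and 165. Nr2f2 had a UMI in 31.6% and 42.1% of venous cells and Ackr1 in 7.02% and 8.13%, so these genes chose few cells by themselves. A further 46 and 62 venous cells had neither Selp nor Ackr1 and were chosen by Lrg1 and Nr2f2 alone. The venous sum ran from 3 to 249 UMIs (median 20) in replicate 1 and from 3 to 338 (median 18) in replicate 2. Just inside the threshold, 13 and 21 venous cells had a sum of exactly 3, and just outside it 9 and 18 cells of no bed had a venous sum of 2. Another 48 and 59 cells of the other beds had a venous sum of at least 3 but a larger capillary or arterial sum.

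Each venous gene in turn was also fitted in cells chosen with the other 3 genes. This is no independent check of the label, because the rule was chosen with earlier results of these data known. Levels are CPM, the usual depth-scaled counts, of UMIs summed per library and bed with TMM scaling, and the test is edgeR's quasi-likelihood test with library as a block and Benjamini-Hochberg adjustment over all genes tested. Selp had 2196 and 2298 CPM (replicates 1 and 2) in venous cells chosen without it, against 47.3 and 88.1 in capillary and 43.2 and 109.1 in arterial cells. The difference was 5.14 ± 0.47 on the log2 scale (SE) from capillary cells (adjusted p = 0.000111) and 5.003 ± 0.49 from arterial cells (adjusted p = 0.000112). Both venous libraries lay above all 4 libraries of the other beds. Nr2f2 had 57.3 and 78.4 CPM in venous cells chosen without it, against 10.6 and 14.8 in capillary and 21.9 and 12.1 in arterial cells, a difference of 2.40 ± 0.35 (adjusted p = 0.000716) and 1.95 ± 0.43 (adjusted p = 0.00774). Lrg1 had 1005 and 508 CPM, against 134 and 115 in capillary and 88.0 and 251 in arterial cells, a difference of 2.58 ± 0.46 (adjusted p = 0.0054) and 2.08 ± 0.48 (adjusted p = 0.0224). Among the 3 beds, venous libraries were the higher ones for both genes, without overlap. Outside the beds, Nr2f2 had 89.6 and 79.5 CPM in mural cells and 65.9 and 64.0 in fibroblasts. Ackr1 had 115 and 131 UMIs (52.8 and 44.2 CPM) in venous cells chosen without it and 0 UMIs in all capillary and arterial libraries, which allows up to 1.09 and 0.803 CPM in capillary and 3.49 and 3.98 CPM in arterial libraries. Set against 3 UMIs over both libraries of a bed, its venous mean was at least 105-fold higher than in capillary and at least 26.1-fold higher than in arterial cells. Leaving Ackr1 out changed no cell's bed (171 and 209 venous cells), so its values are those of the full rule. The Lrg1 calls were lost with free RNA subtracted (adjusted p = 0.0589 and 0.128) and with only the 3 beds in the fit (0.260 and 0.336). With free RNA subtracted the differences stayed at 2.56 ± 0.62 and 2.07 ± 0.65, so the SE changed more than the difference. The share subtracted was 1.34% and 2.36% in venous cells, but 4.41% and 20.2% in mural cells, which share the estimate of the spread. The part of those classes in lost calls was not tested.

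**Figure D1:**
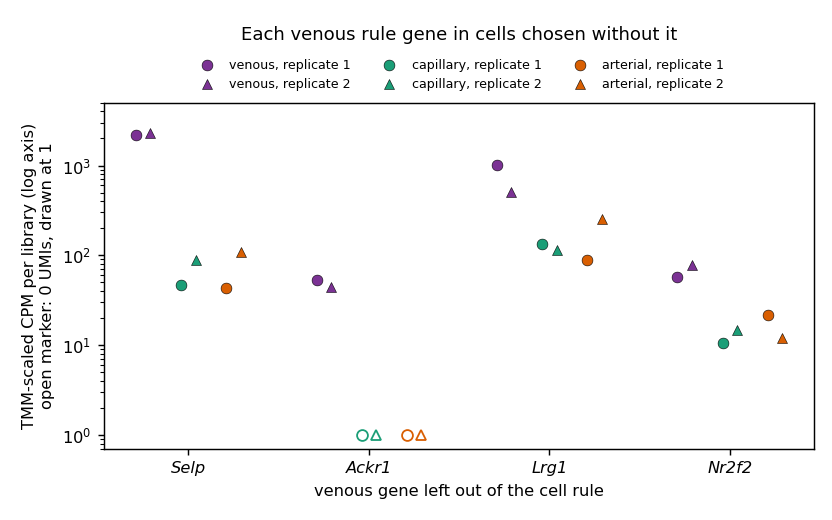
TMM-scaled CPM per library (log axis) of Selp, Ackr1, Lrg1 and Nr2f2 in venous, capillary and arterial cells chosen without that gene; circles are replicate 1, triangles replicate 2, and open markers drawn at 1 stand for 0 UMIs. For each gene both venous libraries lie above the 4 libraries of the other beds, with Selp at 2196 and 2298 CPM in venous cells.

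The venous cells held 2135984 and 2543304 UMIs, with a median of 9718 and 9145 UMIs and 2703 and 2892 genes per cell, against a median of 14264 and 11226 UMIs in capillary and 8490 and 7089 in arterial cells. The libraries also held the cells that name the tissue, with 292 and 875 RPE and 1385 and 2206 melanocyte cells. No barcode was a venous cell in both libraries, and 31 barcodes were cells of both libraries over the whole series. Scrublet called 0 and 7 venous cells doublets, and these were kept except in an alternative. Of the venous haemoglobin UMIs, 99.4% and 99.1% lay in 1 cell per library, and of the RPE marker UMIs, 87.0% and 51.3%. Lymphatic markers, with Flt4 among them, had a UMI in 108 of 171 and 133 of 209 venous cells and at least 5 in 23 and 42. On raw library totals they summed to 182 and 267 CPM in venous, 313 and 367 in capillary and 75.4 and 1246 in arterial cells. The 8 mural markers summed to 151 and 332 CPM in venous, 352 and 142 in capillary and 5894 and 4102 in arterial cells, on raw library totals; at least 5 mural UMIs were found in 12 and 14 venous cells, against 28 of 69 and 15 of 65 arterial cells. All 8 mural markers were tested, and 7 were lower in venous than in arterial cells and 0 were called against capillary cells by edgeR (1 higher at an unadjusted p under 0.05, 1 called by DESeq2); their part in the venous to arterial comparison was not tested, but it was repeated without such cells.

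Outside the 21 genes of the rule, 10255 genes were tested. Calls needed an adjusted p below 0.05 together with a difference of 1 or more on the log2 scale, in either direction. Venous cells were higher than capillary cells in 267 genes (2.6%) and lower in 141 (1.37%), and higher than arterial cells in 313 genes (3.05%) and lower in 562 (5.48%). The libraries of the compared beds did not overlap in 266 of 267, 139 of 141, 312 of 313 and 558 of 562 of these genes, in that order. Lack of overlap between libraries, given below for single genes, therefore adds little to a call. Without cells that held markers of other types, 223 genes were lower than in capillary cells and 233 lower than in arterial cells, 162 of them among the 562. That alternative kept 144 and 167 venous, 98 and 147 capillary and 40 and 47 arterial cells. Calls lost under it can therefore also follow from fewer cells, which was not tested. Without library as a block, 140 genes were higher and 36 lower than in capillary cells, and 184 higher than in arterial cells. The venous sums are shared by both contrasts, so their results are given side by side. In all, 64 genes (0.624%) were higher in venous cells than in both other beds and 18 (0.176%) were lower than in both. Among 9 groups of cells, which also held fibroblast, mural, melanocyte, RPE, macrophage and Schwann cell classes, venous cells had the highest mean level in 40 of those 64 genes, fibroblasts in 9, macrophages in 6 and RPE cells in 4. The 64 genes were chosen as higher than in capillary and arterial cells, so those beds could not lead. Endothelial cells of no bed were not among the 9 groups, and the share over all genes was not taken.

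**Figure D2:**
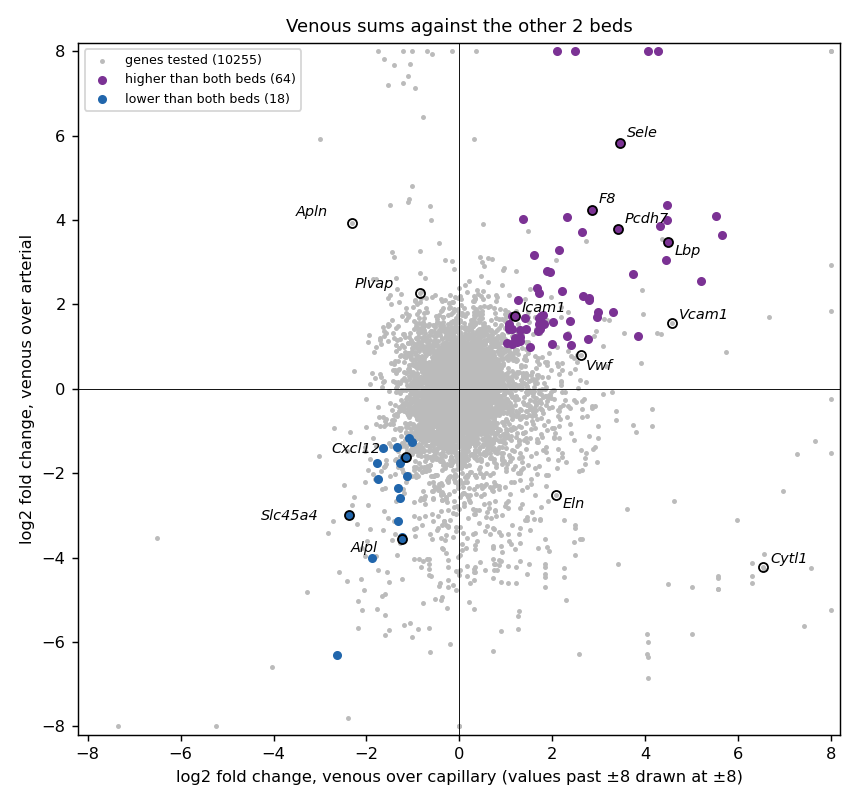
Log2 fold change of venous over capillary cells (horizontal) and venous over arterial cells (vertical) for 10255 genes, with the 64 genes higher than both beds in purple and the 18 lower than both in blue; values past 8 are drawn at 8. Both axes use the same venous sums; Sele and Lbp are higher than both beds, whereas Apln lies between them, lower than capillary and higher than arterial cells.

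Adhesion molecules that catch leukocytes were higher in venous cells than in capillary cells, and the selectin also stood apart from arterial cells. E-selectin (Sele), which slows rolling leukocytes and lies near Selp (chr1:164048234-164057677 for Sele and chr1:164115264-164150026 for Selp, GRCm38), had 356 and 633 CPM in venous cells, against 36.9 and 51.7 in capillary and 10.5 and 6.63 in arterial cells. It was 3.47 ± 0.42 higher than in capillary cells (log2, adjusted p = 0.000534) and 5.82 ± 0.61 higher than in arterial cells (adjusted p = 0.000102). A Sele UMI was found in 53.8% and 65.1% of venous cells, 8.22% and 18.3% of capillary cells and 2.90% and 4.62% of arterial cells, and in 0.244% and 1.35% of mural cells, which should lack it, at a median of 5742 and 5863 UMIs. Icam1 had 816 and 647 CPM in venous cells, against 326 and 316 in capillary and 187 and 265 in arterial cells. Its difference was 1.20 ± 0.21 (adjusted p = 0.00236) from capillary and 1.72 ± 0.22 (adjusted p = 9.83e-05) from arterial cells. For both genes the venous libraries stood above all others. Vcam1, whose product binds leukocyte integrins, had 871 and 697 CPM in venous, 33.3 and 34.3 in capillary and 195 and 370.1 in arterial cells. It was 4.58 ± 0.53 higher than in capillary cells (adjusted p = 0.000823). Its difference of 1.55 ± 0.47 from arterial cells missed the threshold (adjusted p = 0.0579) and passed it under 5 alternatives, among them DESeq2 (adjusted p = 0.022).

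Sele and Icam1 were higher than both beds, and their promoters are shown because NF-κB is known to drive both genes. The 250 bases before each start are from RefSeq (GRCm38.p6), both on the plus strand, chr1:164047984-164048233 for Sele and chr9:21015690-21015939 for Icam1, with matches to GGANNTTCC in capitals:
Sele: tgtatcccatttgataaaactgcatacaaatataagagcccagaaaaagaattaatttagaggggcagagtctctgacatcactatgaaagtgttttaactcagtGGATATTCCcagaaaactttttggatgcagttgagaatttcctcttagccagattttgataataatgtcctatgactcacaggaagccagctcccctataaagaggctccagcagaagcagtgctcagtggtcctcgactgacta
Icam1: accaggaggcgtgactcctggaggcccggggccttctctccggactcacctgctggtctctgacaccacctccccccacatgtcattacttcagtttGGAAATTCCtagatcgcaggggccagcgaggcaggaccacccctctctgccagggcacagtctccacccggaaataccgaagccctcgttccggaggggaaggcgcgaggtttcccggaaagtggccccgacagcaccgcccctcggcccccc
The match in Sele, GGATATTCC, starts 145 bases before the gene and that in Icam1, GGAAATTCC, 153 bases before. This motif, searched on both strands (reverse complement GGAANNTCC), was chosen after these sequences were seen. It occurs in 1178 of 32851 RefSeq windows of this length (3.59%).

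**Figure D3:**
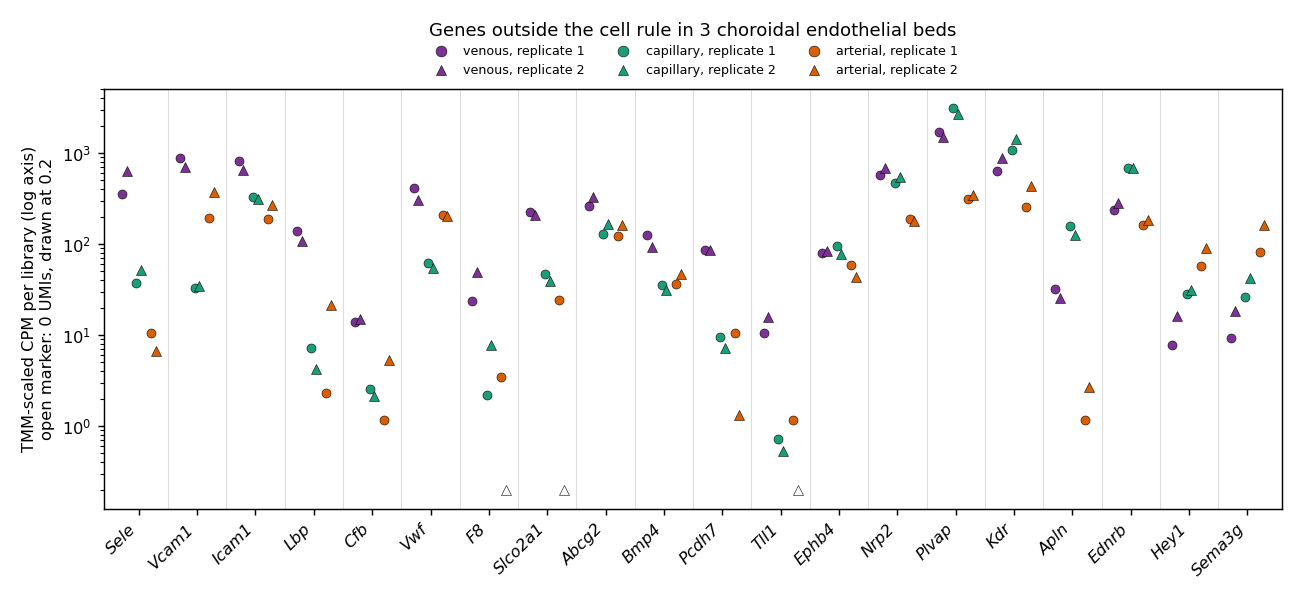
TMM-scaled CPM per library (log axis) of 20 genes outside the cell rule in venous (purple), capillary (green) and arterial (orange) cells; circles are replicate 1, triangles replicate 2, and open markers at 0.2 stand for 0 UMIs. Sele, Icam1, Lbp and Pcdh7 lie highest in both venous libraries, Plvap and Kdr lie between capillary and arterial levels, Ephb4 is close to its capillary level, and Hey1 and Sema3g are lowest in venous cells.

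Of the 22 tested genes of a leukocyte recruitment list, 5 were higher in venous than in capillary cells and 0 lower: Sele, Vcam1, Icam1, Csf3 and Csf1. The list's median log2 fold change was 0.52, beside -0.0015 over all genes tested. Against arterial cells 3 were higher (Sele, Icam1 and Cxcl16) and 2 lower (Il6 and Aoc3), with a median of -0.10 beside -0.013. Over all genes tested, 2.6% were higher and 1.37% lower than in capillary cells, and 3.05% and 5.48% than in arterial cells. The counts of this and the following lists stand beside these shares, and counts of 1 or 2 members say little about a pathway. Csf1, the macrophage growth factor, had 98.8 and 85.7 CPM in venous cells, against 31.5 and 50.1 in capillary and 47.7 and 47.7 in arterial cells. Csf3, the granulocyte growth factor, rested on few cells: 33.5% and 46.9% of its venous UMIs lay in 1 cell per library. Of genes known from high endothelial venules, Madcam1, Glycam1 and Chst4 had 0 UMIs in all libraries of the 3 beds, and Fut7 had 1, in capillary cells. Il6 and Aoc3 had their highest mean level in mural cells, and the Il6 difference from arterial cells changed sign without cells that held markers of other types (3.07, adjusted p = 0.31).

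**Figure D4:**
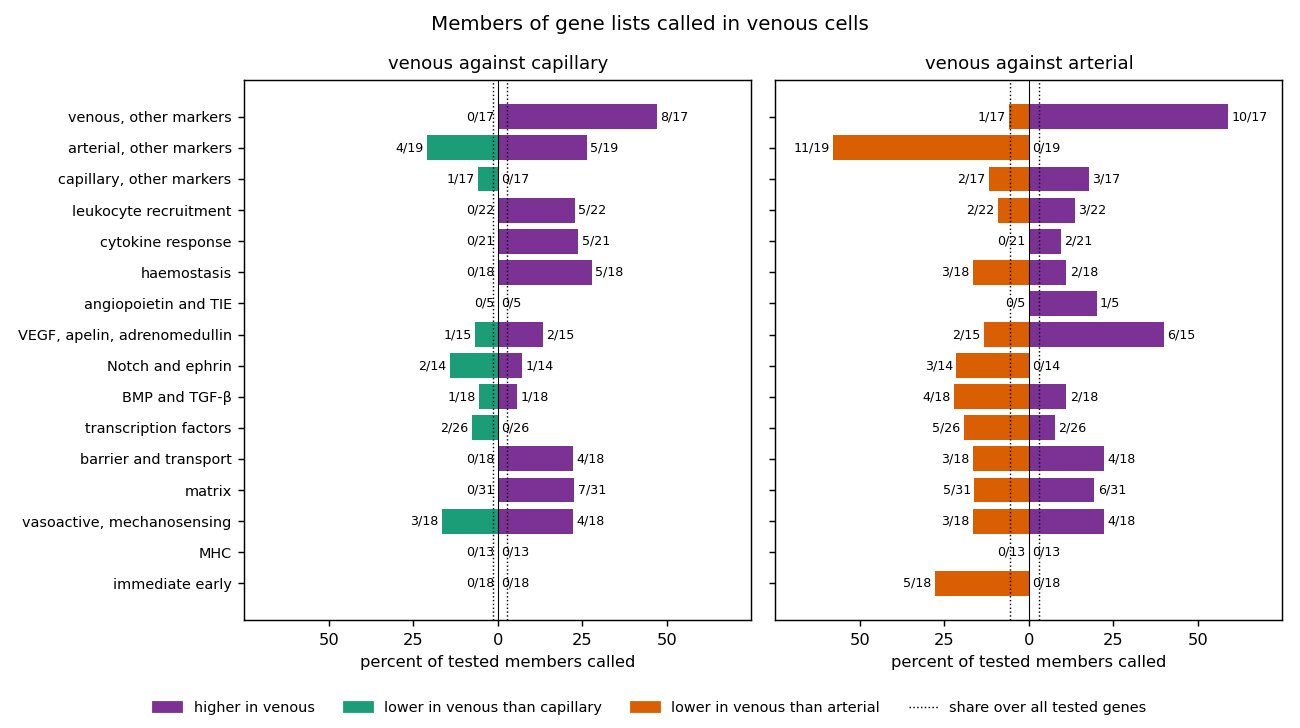
Percent of the tested members of 16 gene lists called higher (right) or lower (left) in venous cells, against capillary cells in the left panel and arterial cells in the right; labels give called over tested members and dotted lines the share over all tested genes. Other venous markers stand at 8 of 17 and 10 of 17 higher, and other arterial markers at 11 of 19 lower than in arterial cells.

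Lbp, Cfb and Tlr2 were among the 64 genes higher in venous cells than in both other beds. Lbp, which carries bacterial lipopolysaccharide to its receptor, had 139 and 107 CPM in venous cells, against 7.23 and 4.28 in capillary and 2.33 and 21.2 in arterial cells. It was 4.48 ± 0.49 (adjusted p = 0.000229) and 3.48 ± 0.57 (adjusted p = 0.00189) higher. Complement factor B (Cfb), a protease of the alternative pathway, had 13.8 and 15.2 CPM in venous, 2.53 and 2.14 in capillary and 1.16 and 5.31 in arterial cells, a difference of 2.65 ± 0.36 (adjusted p = 0.000358) and 2.21 ± 0.52 (adjusted p = 0.01). For both genes the venous libraries were the highest of the 3 beds, but the highest mean over all 9 groups was in fibroblasts. Toll-like receptor 2 (Tlr2), named after its values were seen, had 53.7 and 38.4 CPM in venous, 11.2 and 15.5 in capillary and 17.4 and 9.28 in arterial cells, and was higher than in both beds (1.79 and 1.75).

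Among 21 tested genes of cytokine response, 5 were higher in venous than in capillary cells and 0 lower (Il6st, Csf2rb, Lcn2, Ch25h and Bst1), and 2 were higher than in arterial cells (Csf2rb and Bst1) and 0 lower. The medians were 0.51 and 0.34. Il6st, the shared receptor chain gp130 of the interleukin-6 family, had 255 and 310.3 CPM in venous, 73.1 and 101 in capillary and 205 and 167 in arterial cells, and was 1.71 ± 0.18 above capillary cells (adjusted p = 2.9e-05). Its difference of 0.58 ± 0.19 from arterial cells was not called (adjusted p = 0.051). Csf2rb, the shared receptor chain of GM-CSF and interleukin-3, had 135 and 144 CPM in venous cells, against 34.7 and 26.2 in capillary and 30.2 and 25.2 in arterial cells. It was called in both contrasts (2.20 ± 0.51, adjusted p = 0.0316, and 2.32 ± 0.63, adjusted p = 0.0405), but its reads may be shared with the near-identical Csf2rb2, and the calls were lost with DESeq2 (adjusted p = 0.18 and 0.095) and without cells that held markers of other types (0.089 and 0.094). Ch25h, which makes 25-hydroxycholesterol, had 329 and 135 CPM in venous, 47.0 and 41.8 in capillary and 152 and 88.9 in arterial cells. It was 2.33 ± 0.33 above capillary cells (adjusted p = 0.000999), and its venous and arterial libraries overlapped. Lcn2, an iron-scavenging acute-phase protein, had 56.5 and 29.0 CPM in venous, 0 and 1.34 in capillary and 22.1 and 23.9 in arterial cells, and 30.1% and 41.9% of its venous UMIs lay in 1 cell per library. Of 13 tested MHC genes 0 were called in either contrast, with medians of 0.38 and 0.31; edgeR gave an unadjusted p under 0.05 to 4 of them in each contrast, all higher in venous cells, and DESeq2 called 0.

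Haemostatic genes were higher in venous than in capillary cells where they were called, with von Willebrand factor among them, and went both ways against arterial cells. Vwf, the platelet tether stored in endothelial granules, had 417 and 307 CPM in venous cells, against 62.2 and 54.9 in capillary and 210.4 and 202 in arterial cells. It was 2.62 ± 0.21 higher than in capillary cells (adjusted p = 7.09e-06), and its difference of 0.80 ± 0.21 from arterial cells (adjusted p = 0.0179) stayed under the size threshold. Both venous libraries lay above the arterial ones, which lay above the capillary ones. F8, the coagulation factor that circulates bound to von Willebrand factor, had 23.9 and 49.2 CPM in venous, 2.17 and 7.76 in capillary and 3.49 and 0 in arterial cells. It was higher than in both beds, by 2.85 ± 0.35 (adjusted p = 0.000146) and 4.24 ± 0.63 (adjusted p = 0.000319). Over 18 tested haemostasis genes, 5 were higher than in capillary cells and 0 lower (Vwf, F8, Ptgs1, Ptgis and S100a10, median 0.62). Against arterial cells, 2 were higher (F8 and Ptgs1) and 3 lower (Procr, Plat and Thbs1), with a median of 0.38. Procr, the endothelial protein C receptor, had 149.7 and 102 CPM in venous, 127 and 104 in capillary and 880.1 and 525 in arterial cells. Procr and Plat lost the call without cells that held markers of other types, and Thbs1 changed sign (2.18, adjusted p = 0.15).

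Ptgs1, Pla2g4a and Slco2a1, of prostanoid synthesis and uptake, were also higher in venous cells than in both other beds, and Ptgs2 and Ptgis were higher than in capillary cells. Ptgs1, the constitutive cyclooxygenase, had 74.9 and 84.3 CPM in venous cells, against 31.5 and 41.2 in capillary and 22.1 and 26.5 in arterial cells, a difference of 1.13 ± 0.22 (adjusted p = 0.00438) and 1.71 ± 0.30 (adjusted p = 0.000966). Pla2g4a, the phospholipase that frees arachidonic acid, had 15.6 and 9.78 CPM in venous, 1.09 and 0.803 in capillary and 2.33 and 1.33 in arterial cells (3.74 ± 0.53, adjusted p = 0.000366, and 2.72 ± 0.71, adjusted p = 0.0173). Slco2a1, the prostaglandin uptake carrier, had 222 and 207 CPM in venous, 47.4 and 39.3 in capillary and 24.4 and 0 in arterial cells. It was 2.31 ± 0.39 (adjusted p = 0.00535) and 4.06 ± 0.57 (adjusted p = 0.001) higher. The venous libraries were the highest for all 3 genes. Ptgs2, the inducible cyclooxygenase, had 219 and 179 CPM in venous, 6.51 and 19.8 in capillary and 88.4 and 23.9 in arterial cells, and was called against capillary cells only (3.94 ± 0.74, adjusted p = 0.0118, and 1.76 ± 0.71, adjusted p = 0.15). Prostacyclin synthase (Ptgis) had 67.5 and 41.8 CPM in venous, 1.81 and 5.09 in capillary and 36.0 and 34.5 in arterial cells (3.90 ± 0.47, adjusted p = 0.000362, and 0.62 ± 0.41, adjusted p = 0.384). Venous Ptgs2 UMIs came from 49 and 56 cells. With only the 3 beds in the fit, the calls of Slco2a1 (adjusted p = 0.19 and 0.1) and Ptgs2 (0.2) were lost.

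Pcdh7, Tll1, Bmp4 and Abcg2 were also among the 64 genes higher than in both beds. Pcdh7, a protocadherin of cell contacts, had 85.4 and 85.3 CPM in venous cells, against 9.41 and 7.23 in capillary and 10.5 and 1.33 in arterial cells (3.41 ± 0.37, adjusted p = 7.54e-05, and 3.78 ± 0.53, adjusted p = 0.000292). Tll1, a metalloprotease that processes collagens and BMP inhibitors, had 10.6 and 15.9 CPM in venous, 0.723 and 0.535 in capillary and 1.16 and 0 in arterial cells (4.47 ± 0.63, adjusted p = 0.000368, and 4.36 ± 1.01, adjusted p = 0.00809). For both genes the venous libraries stood above all others. The growth factor Bmp4 had 126 and 93.8 CPM in venous, 35.5 and 31.0 in capillary and 36.0 and 46.4 in arterial cells. It was 1.73 ± 0.36 (adjusted p = 0.0121) and 1.42 ± 0.42 (adjusted p = 0.0432) higher, and both calls were lost with free RNA subtracted (adjusted p = 0.058 and 0.099). Of 18 tested genes of BMP and TGF-β signalling, 1 was higher (Bmp4) and 1 lower (Smad6, an inhibitor of BMP signals) than in capillary cells, beside 2.6% and 1.37% of all genes tested. Against arterial cells 2 were higher (Bmp4 and Tgfbr3) and 4 lower (Bmpr1a, Id3, Tgfb2 and Tmem100), of which Id3 was at -0.069 (adjusted p = 0.907) without cells that held markers of other types. The efflux pump Abcg2 had 265 and 332 CPM in venous, 129 and 165 in capillary and 122 and 160.5 in arterial cells (1.02 ± 0.21, adjusted p = 0.0069, and 1.08 ± 0.23, adjusted p = 0.00506), close to the size threshold. Among 18 tested barrier and transport genes, 4 were higher than in capillary cells and 0 lower (Slco2a1, Abcg2 and the junction genes Ocln and Lsr). Against arterial cells 4 were higher (Plvap, Slco2a1, Abcg2 and Emcn) and 3 lower (Mfsd2a, Cavin2 and Lsr). Ocln, a tight junction protein, had 12.9 and 17.9 CPM in venous, 2.17 and 4.28 in capillary and 16.3 and 23.9 in arterial cells, so its venous and arterial libraries overlapped.

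Plvap, Kdr, Nrp2, Apln, Aplnr and Angpt2, genes of fenestration and vessel growth, were higher in venous than in arterial cells, and Apln was lower than in capillary cells. Plvap, the protein of fenestral diaphragms, had 1696 and 1507 CPM in venous cells, against 3139 and 2665 in capillary and 314 and 344 in arterial cells. It was 2.28 ± 0.23 higher than in arterial cells (adjusted p = 1.46e-05), and the difference of -0.86 ± 0.21 from capillary cells (adjusted p = 0.0221) was under the size threshold. The VEGF receptor Kdr had 638 and 888 CPM in venous, 1083 and 1417 in capillary and 257 and 429.7 in arterial cells (-0.72 ± 0.20, adjusted p = 0.0385, and 1.17 ± 0.21, adjusted p = 0.00127). None of the 3 beds overlapped for Plvap or Kdr. Nrp2, a semaphorin and VEGF-C coreceptor known from veins and lymphatics, had 570.0 and 683 CPM in venous, 464 and 541 in capillary and 191 and 178 in arterial cells. It was 1.75 ± 0.21 above arterial cells (adjusted p = 3.33e-05) and did not pass against capillary cells (0.32 ± 0.19, adjusted p = 0.415). Apelin (Apln), a peptide of sprouting capillaries, had 32.2 and 25.3 CPM in venous, 158 and 127 in capillary and 1.16 and 2.65 in arterial cells, lower than in capillary cells (-2.32 ± 0.20, adjusted p = 7.68e-06) and higher than in arterial cells (3.93 ± 0.53, adjusted p = 0.00014). Its venous UMIs came from 15 and 19 cells. Its receptor Aplnr had 21.6 and 23.9 CPM in venous, 32.6 and 21.7 in capillary and 5.81 and 3.98 in arterial cells, and passed against arterial cells only (2.23 ± 0.51, adjusted p = 0.00963). Angpt2, a TIE2 ligand that destabilises vessels, had 119 and 143 CPM in venous, 229 and 260.4 in capillary and 22.1 and 43.8 in arterial cells (2.01 ± 0.34 over arterial cells, adjusted p = 0.000997). Its receptor Tek had 143 and 178 CPM in venous, 115 and 145 in capillary and 131 and 167 in arterial cells, and was called in neither contrast.

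Of the 15 tested VEGF, apelin and adrenomedullin genes, 2 were higher in venous than in capillary cells (Vegfc and Pgf) and 1 lower (Apln), beside 2.6% and 1.37% of all genes tested, with a median of -0.21. Against arterial cells 6 were higher (Kdr, Flt4, Nrp2, Apln, Aplnr and the adrenomedullin receptor Calcrl, the last named after its values were seen) and 2 lower (Vegfa and Vegfc), with a median of 0.61. Of 5 angiopoietin and TIE genes, 0 were called against capillary cells by edgeR or DESeq2, with 1 lower at an unadjusted p under 0.05, and 1 was higher than in arterial cells (Angpt2). The calls of Plvap (adjusted p = 0.18) and Kdr (0.34) over arterial cells were lost with free RNA subtracted, with the log2 differences at 2.32 and 1.22. Pgf, a VEGF family ligand, lay mostly in few cells, with 36.7% and 30.7% of its venous UMIs in 1 cell per library. Its difference from capillary cells was 0.15 (adjusted p = 0.927) without cells that held markers of other types.

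Of the arterial markers that were called between venous and capillary cells, some were lower and others higher in venous cells. Hey1, a transcription factor switched on by Notch, had 7.81 and 16.2 CPM in venous cells, against 28.6 and 31.0 in capillary and 57.0 and 91.5 in arterial cells (-1.28 ± 0.27, adjusted p = 0.00794, and -2.58 ± 0.29, adjusted p = 2.17e-05). Sema3g, an arterial semaphorin, had 9.19 and 18.2 CPM in venous, 26.4 and 42.0 in capillary and 81.4 and 163 in arterial cells (-1.32 ± 0.27, adjusted p = 0.00794, and -3.13 ± 0.27, adjusted p = 8e-06). The chemokine Cxcl12 had 137 and 138 CPM in venous, 276 and 339.9 in capillary and 419 and 423 in arterial cells (-1.15 ± 0.19, adjusted p = 0.00133, and -1.62 ± 0.20, adjusted p = 4.25e-05). All 3 genes were lowest in both venous libraries, but the calls against capillary cells were lost for Cxcl12 with free RNA subtracted (adjusted p = 0.353) and for Hey1 with no UMI of the excluded genes (0.0922). Unc5b, a netrin receptor of arteries and tip cells, had 12.4 and 15.2 CPM in venous, 49.9 and 45.2 in capillary and 44.2 and 50.4 in arterial cells (-1.77 ± 0.27, adjusted p = 0.000643, and -1.76 ± 0.32, adjusted p = 0.00142). The elastic fibre gene Eln took the other order, with 39.0 and 33.4 CPM in venous, 8.32 and 8.83 in capillary and 251 and 158 in arterial cells. It was 2.07 ± 0.32 above capillary cells (adjusted p = 0.000765) and 2.52 below arterial cells (-2.52 ± 0.26, adjusted p = 1.33e-05). Fbln5 and Vegfc had the same order and were called in both contrasts.

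Over 19 tested arterial markers that the rule did not use, 5 were higher in venous than in capillary cells (Fbln5, Mgp, Eln, Vegfc and Jag1) and 4 lower (Hey1, Dll4, Sema3g and Cxcl12), with a median of 0.21. Against arterial cells 0 were higher and 11 lower, with a median of -1.12. Of 14 tested Notch and ephrin genes, 1 was higher (Jag1) and 2 lower (Dll4 and Hey1) than in capillary cells, beside 2.6% and 1.37% of all genes tested. Of the same 14 genes, 0 were higher and 3 lower (Jag2, Hey1 and Heyl) than in arterial cells, beside 3.05% and 5.48%. Dll4, the Notch ligand, had 67.5 and 95.1 CPM in venous, 153 and 192 in capillary and 110.5 and 118 in arterial cells, and its call against capillary cells (-1.08 ± 0.28, adjusted p = 0.0324) was lost with free RNA subtracted (adjusted p = 0.095) and with DESeq2 (0.056). The receptors Notch1 and Notch4 were called in neither contrast. Of the 17 tested capillary markers outside the rule, 0 were higher and 1 lower than in capillary cells (Gpihbp1, the lipoprotein lipase anchor, with 43.2 and 48.9 CPM in venous and 105 and 145 in capillary cells). The Gpihbp1 call was lost under 5 alternatives, among them DESeq2 (adjusted p = 0.118) and free RNA subtracted (0.2). Against arterial cells 3 were higher (Plvap, Kdr and Emcn) and 2 lower (Lpl and Tbx3).

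Of 17 tested venous markers that the rule did not use, 8 were higher than in capillary cells and 0 lower (among them Vwf, Vcam1, Icam1, Sele, Tll1, Ch25h and Bst1), with a median of 0.95. Against arterial cells 10 were higher and 1 lower (Nr2f1), with a median of 1.55. Ephb4, the ephrin receptor that marks embryonic veins, had 80.4 and 84.3 CPM in venous cells, against 94.4 and 77.4 in capillary and 59.3 and 43.8 in arterial cells. It differed by -0.05 ± 0.20 from capillary cells (adjusted p = 0.938) and by 0.67 ± 0.25 from arterial cells (adjusted p = 0.0877), so neither difference passed the test; the venous and capillary libraries overlapped. Nr2f1, the close relative of Nr2f2, had 3.22 and 11.5 CPM in venous, 2.53 and 6.69 in capillary and 82.5 and 35.8 in arterial cells (-3.06 ± 0.60 against arterial cells, adjusted p = 0.00624). That gene had its highest mean in mural cells, and without cells that held markers of other types the difference from arterial cells was 0.09 (adjusted p = 0.98). Of 26 tested endothelial transcription factors, 0 were higher and 2 lower (Gata2 and Tcf15) than in capillary cells, and DESeq2 called neither of these 2 (adjusted p = 0.0605 and 0.0603). Against arterial cells 2 were higher (Maf and Meox1) and 5 lower (Nr2f1, Tbx1, Tbx3, Gata6 and Tcf15). The flow-regulated factors Klf2 and Klf4 were called in neither contrast, with 998 and 669 CPM of Klf2 in venous, 380.2 and 454 in capillary and 1429 and 1021 in arterial cells.

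Matrix genes of the venous cells differed from the capillary and the arterial wall in different members. Of 31 tested genes, 7 were higher than in capillary cells and 0 lower: Fn1, Mgp, Fbln5, Eln, Igfbp5, Tgm2 and Col18a1, the last 3 of them named after their values were seen. Mgp, an inhibitor of calcification and BMP signals, had 8195 and 3144 CPM in venous, 847 and 464 in capillary and 6519 and 5424 in arterial cells (3.09 ± 0.63 over capillary cells, adjusted p = 0.0183, and -0.12 ± 0.58 from arterial cells, adjusted p = 0.935). Fibronectin (Fn1) had 113 and 76.9 CPM in venous, 13.4 and 5.89 in capillary and 223 and 87.5 in arterial cells (3.37 ± 0.71 over capillary cells, adjusted p = 0.0193). For both genes the venous libraries overlapped the arterial ones and lay above the capillary ones. Against arterial cells 6 matrix genes were higher, and 5 of them, Col15a1, Lamb1, Nid1, Nid2 and Hspg2, encode parts of the basement membrane. All but Col15a1 were named after their values were seen. The list also holds Col4a1, Col4a2, Lama4, Lama5 and Lamc1, which are not among these 5. Nor is Col18a1, with 152 and 141 CPM in venous cells with a Selp or Ackr1 UMI, 180 and 133 in those with none, and 213 and 231 in arterial cells. Nid1 had 157 and 199 CPM in venous, 192 and 264 in capillary and 45.3 and 65.0 in arterial cells (1.70 ± 0.19 over arterial cells, adjusted p = 2.23e-05), and Col15a1 had 89.1 and 138 CPM in venous, 124 and 145 in capillary and 30.2 and 37.1 in arterial cells (1.75 ± 0.26, adjusted p = 0.000249). The 5 lower ones were Eln, Fbln2, Fbln5, Lox and Sparcl1. The list's medians were -0.26 and -0.12. The Mgp call was lost with free RNA subtracted (adjusted p = 0.34), and those of Nid2 (0.64) and Hspg2 (0.079) without cells that held markers of other types.

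Of 18 tested genes of vessel tone and mechanosensing, 4 were higher than in capillary cells (Ptgs1, Ptgs2, Ptgis and Npr1) and 3 lower (Ednrb, Npr3 and Kcnj2), and 4 were higher than in arterial cells (Ptgs1, Npr1, Piezo2 and Kcnj2) and 3 lower (Edn1, Ace and Trpv4). Ednrb, the endothelin receptor of endothelium, had 237 and 285 CPM in venous, 692 and 686 in capillary and 162 and 184 in arterial cells (-1.41 ± 0.22, adjusted p = 0.000866, and 0.59 ± 0.22, adjusted p = 0.1). Piezo2, a stretch-gated channel, had 55.6 and 107 CPM in venous, 92.6 and 153 in capillary and 2.33 and 7.96 in arterial cells (-0.62 ± 0.24, adjusted p = 0.144, and 4.001 ± 0.47, adjusted p = 4.84e-05). Its venous and capillary libraries overlapped, and both lay above the arterial ones. The ligand Edn1 had 199 and 181 CPM in venous, 173 and 157 in capillary and 480.2 and 350.2 in arterial cells (-1.12 ± 0.21 against arterial cells, adjusted p = 0.00236). The Npr1 call was lost under 7 alternatives against capillary cells, among them DESeq2 (adjusted p = 0.0579), and under 5 against arterial cells, among them the one without cells that held markers of other types (0.80, adjusted p = 0.32). The Ednrb call was lost with free RNA subtracted (adjusted p = 0.51) with a difference of -1.44. The list's medians were 0.25 and 0.29.

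Immediate early genes, which cell dissociation is known to induce, were not called between venous and capillary cells: 0 of 18 tested genes were called by edgeR or DESeq2, and 2 were higher and 2 lower at an unadjusted p under 0.05. Against arterial cells 5 were lower and 0 higher (Fosb, Egr1, Nr4a1, Btg2 and Gadd45b), with a median of -0.78. Fosb, for example, had 138 and 141 CPM in venous, 115 and 139 in capillary and 437 and 413 in arterial cells (-1.61 ± 0.25 against arterial cells, adjusted p = 0.000686).

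Venous cells made up 34.3% of the endothelial cells in replicate 1 (171 of 499, exact 95% binomial interval 30.1% to 38.6%) and 34.0% in replicate 2 (209 of 615, 30.2% to 37.9%). Among cells of the 3 beds the shares were 44.3% and 44.4%. The rule and its minimum set these shares, and intervals cover counting error only.

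The venous cells were also compared within themselves, those with at least 1 Selp or Ackr1 UMI (125 and 147) against those with none (46 and 62), which had a median of 10393 and 9187 against 8122 and 8655 UMIs. Selp alone had a UMI in 125 and 147 venous cells, so Ackr1 placed no cell and the split is one by Selp. Cells with none had to reach the venous minimum on Lrg1 and Nr2f2. The split thus follows a gene of the rule, and the part of that choice and of depth in the differences was not tested. Of 9028 genes tested, 20 were higher (0.222%) and 4 lower (0.0443%) in cells with a Selp or Ackr1 UMI. DESeq2 called 43 and 9, a fit of the 3 beds alone 57 and 13, and the fit without library as a block 5 and 0. Vwf was higher in them, with 476 and 357 CPM, against 194 and 152 in cells with none (1.27 ± 0.21, adjusted p = 0.00856). Il6st had 291 and 364 CPM in cells with a Selp or Ackr1 UMI, against 120 and 146 in cells with none (1.30 ± 0.19, adjusted p = 0.00197). Aebp1, a secreted collagen-binding protein, had 105 and 96.5 CPM, against 7.76 and 11.2 (3.40 ± 0.53, adjusted p = 0.0104). The groups did not overlap for these genes. Socs2, a feedback inhibitor of cytokine receptors, had 181 and 198 CPM, against 48.5 and 79.6 (1.54 ± 0.27, adjusted p = 0.0133). Also among the 20 were Apln and Rbp7, whose levels were higher still in capillary cells. Apln had 39.4 and 33.1 CPM, against 5.82 and 2.49 (3.23 ± 0.46, adjusted p = 0.0024), with 159 and 127 in capillary cells. Rbp7 had 15.3 and 29.0 CPM, against 1.94 and 2.49 (3.37 ± 0.68, adjusted p = 0.0467), with 47.6 and 84.0 in capillary cells. Of the venous Rbp7 UMIs, 48.1% and 40.9% lay in 1 cell per library. In the other direction, the matrix gene Fbln2 had 19.4 and 34.9 CPM, against 64.0 and 114 (-1.72 ± 0.30, adjusted p = 0.0104), and the guidance cue Sema3c had 37.7 and 39.0 CPM, against 83.4 and 102 (-1.27 ± 0.25, adjusted p = 0.0359). Dlk1 and Hamp were called higher from 5 and 3 cells per library, with 50% or more of their UMIs in 1 cell, and Ccl21a lower from 2 cells of replicate 2. Apart from Vwf, the genes called here were named after their values were seen.

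Sele and Vcam1 were not called within the venous cells. Sele had 426 and 769 CPM in cells with a Selp or Ackr1 UMI, against 99.0 and 224 in cells with none (1.94 ± 0.38, adjusted p = 0.0703). Vcam1 had 1034 and 902 CPM, against 272 and 93.3 (2.43 ± 0.62, adjusted p = 0.2). The libraries of the groups did not overlap, but with 2 libraries a group this decides nothing, and neither gene passed the test. Cells with no Selp or Ackr1 UMI were set against capillary cells too, and 35 genes were higher (0.388%) and 24 lower (0.266%). Against arterial cells, 220 genes were higher (2.44%) and 409 lower (4.53%) in venous cells with no Selp or Ackr1 UMI. In these cells Vwf (194 and 152 CPM, against 62.4 and 54.9 in capillary cells) was higher than in capillary cells, by 1.55 ± 0.22 (adjusted p = 0.0023). Apln (5.82 and 2.49 CPM, against 159 and 127) and Ednrb (310.5 and 378 CPM, against 695 and 686) were lower, with differences of -5.21 ± 0.37 (adjusted p = 4.9e-07) and -1.01 ± 0.21 (adjusted p = 0.0294).

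Leiden clustering of the venous cells gave 4 clusters, each with cells of both libraries, given as a description because the clusters were made from the genes they are described by. On raw library totals, cluster 0 (75 and 83 cells) had the highest Selp level, at 3829 and 5983 CPM, with 1329 and 1764 CPM of Vcam1. Its leading genes included Lcn2, Ptgs2 and the metallothioneins Mt1 and Mt2, but also Ttr and Ptgds, which RPE cells express, and Dct, a melanocyte gene. Its cells were the shallowest, with a median of 6552 and 5105 UMIs. Cluster 1 (37 and 59 cells) was led by Pgf, Fxyd6, S100a6, Fabp4 and Igfbp5 and had the most Nr2f2, 146 and 194 CPM. It also held the mural marker Rgs5, at 35.6 and 554 CPM, and the lymphatic marker Prox1, at 10.5 and 66.15 CPM. Cluster 2 (36 and 34 cells) was led by Ihh, Nmb and Kcnk5, with Car8, Rgs9 and Npr3 also among its 10 leading genes, and of these Nmb, Car8, Rgs9 and Npr3 were lower in venous than in capillary cells as a whole. This cluster had 275 and 408 CPM of Selp beside 2672 and 2997 of Plvap and 71.6 and 89.0 of Apln, with the deepest cells at a median of 16304 and 18714 UMIs. Cluster 3 (23 and 33 cells) was led by Hapln1, Btnl9 and Mlec, with Sox17 among its leading genes and 78.2 and 88.9 CPM of Vwf. Selp thus ran from 275 to 5983 CPM over clusters and libraries, while Ephb4 stayed between 55.1 and 109.9 CPM.

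**Figure D5:**
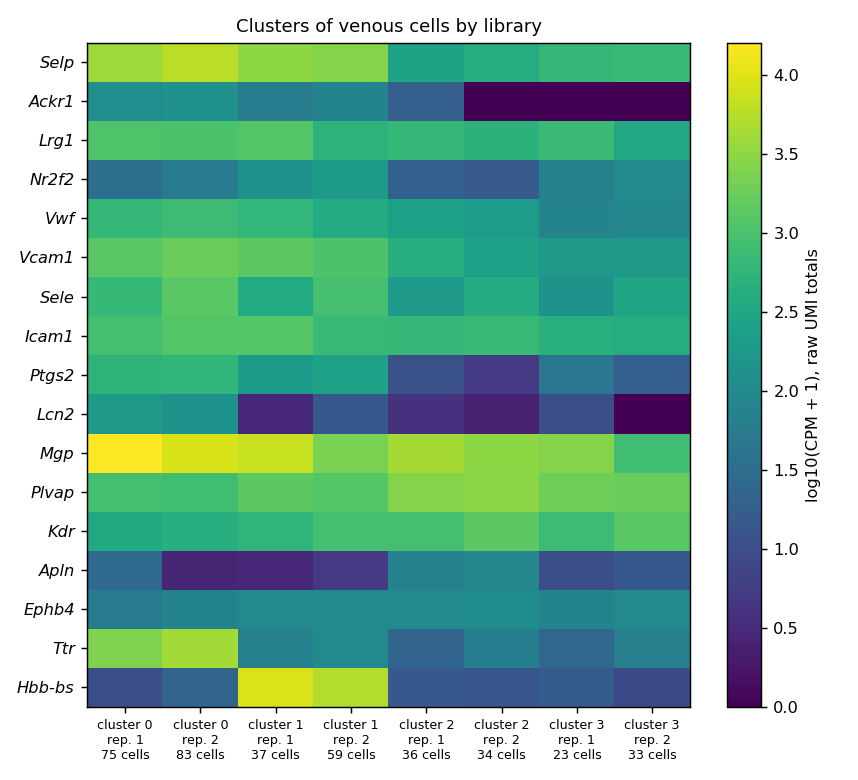
Log10(CPM + 1) on raw UMI totals of 17 genes in the 4 clusters of venous cells, 1 column per cluster and library with its number of cells. Selp and Vcam1 are highest in clusters 0 and 1, Plvap, Kdr and Apln in cluster 2, and Ttr in cluster 0; Hbb-bs is high in cluster 1, where 1 cell per library holds most of it.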

How the data were processed

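Single-cell RNA was measured with 10x Genomics chemistry in 2 libraries of choroid and RPE from wild-type ICR mice. The deposited values are raw counts of UMIs, which the authors made with Cell Ranger, version 2.1.1 per the submitters' processing notes and 4 per the file headers, on mm10. The matrices were not filtered for cells (1959894 and 1856693 barcodes, 32285 genes, 91741168 and 149570817 UMIs), so cells were kept here at 1000 UMIs or more, 500 genes or more and at most 20% mitochondrial UMIs, which left 8497 and 13401. Doublets were scored with Scrublet and kept, apart from an alternative.

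Counts were summed per library and group of cells, which gave 20 sums: 3 beds, endothelial cells of no bed and 6 other classes, in 2 libraries. The fit used edgeR 4.0.16 in R 4.3.3 after filterByExpr and TMM scaling, with library as a block, because all groups come from the same libraries, which left 9 residual degrees of freedom. The 21 genes of the rule were taken out, and p-values were adjusted by Benjamini-Hochberg over 10255 genes. Standard errors were derived from the F statistic. Clusters came from scanpy 1.11.5 and leidenalg 0.10.2, with 1052 variable genes, 15 components and a resolution of 0.4. The script was tested on simulated data. Gene positions are from GENCODE on GRCm38.

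The cell rule, gene lists and tests were chosen with earlier results of these data known. Genes were named by size: up to 20 higher and 12 lower than both beds, up to 8 per single contrast and direction, up to 4 per list, a short list of endothelial genes, and members of counts of 5 or fewer; genes said to be named after their values were seen fall outside that. Alternatives changed the cell rule, the scaling, the filter, the tool, the samples in the fit, the block, free RNA, doublets and cells with markers of other types. 1 gene called in both contrasts is counted but not reported here.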

Additional observations from a re-analysis of the deposited data

How the results depend on the processing

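Counts of called genes were within 1.5 times the main ones except in the following cases. Without library as a block, 140 genes were higher and 36 lower in venous than in capillary cells, 184 were higher than in arterial cells, 31 were higher and 5 lower than in both beds, and 5 and 0 were called in the split by Selp and Ackr1. Without cells that held markers of other types, 223 genes were lower than in capillary cells and 233 lower than in arterial cells, 162 of them among the 562 called with all cells. With venous cells limited to those with a Selp or Ackr1 UMI, 30 genes were lower than in both beds. The split gave 43 and 9 genes with DESeq2 and 57 and 13 with only the 3 beds in the fit. Counts of genes called against both beds were added as a result after seeing the data.

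Leaving out a library left no residual degrees of freedom, so these are values with no test, counting the called genes that kept a log2 difference of 1 in the remaining library: 244 to 252 genes higher and 117 to 120 lower than in capillary cells, 260 to 278 higher and 501 to 530 lower than in arterial cells, and 54 to 60 higher and 14 to 15 lower than in both. The Lrg1 difference from arterial cells was 1.02 without replicate 1 and 3.51 without replicate 2.

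Lrg1, left out of the rule, differed by 2.56 and 2.07 with free RNA subtracted and by 2.60 and 2.15 with only the 3 beds in the fit. The venous share of endothelial cells was 36.5% and 29.0% at a bed minimum of 2 and 5 UMIs, 34.5% at 2000 UMIs per cell, 34.8% with no UMI of the excluded genes and 34.8% without Scrublet doublets, and the share of the 3 beds was 43.6%, 45.9%, 44.0%, 45.4% and 44.95%. Against arterial cells without cells that held markers of other types, the sign changed for Igfbp5 (3.46), Thbs1 (2.18), Enho (1.16), Il6 (3.07), Nr2f1 (0.091), Gpx8 (0.034) and Fgf1 (1.19); the cause was not tested. Ccl21a differed from arterial cells by -5.25 without replicate 1 and 0.00 without replicate 2, and Qpct by 0.023 without replicate 1 and -3.38 without replicate 2. With 2 libraries a bed, the tests rest on 2 values per bed.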
